A study of Homo sapiens with 6 samples.

Results

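The genes of oxidative phosphorylation were followed in NK-92 cells with and without knockdown of the long non-coding RNA miR155HG. Members were chosen by symbol, with earlier results of these data known. The symbol rule was written for the named subunits of respiratory complexes I to IV and of ATP synthase (complex V), encoded in the nucleus or in mitochondrial DNA (mtDNA). Of 103 symbols that matched, 95 had more than 1 CPM (counts scaled to a common library total) in at least 2 of the 6 libraries and were tested among 12263 genes. These were 82 nuclear members, spread over 22 chromosomes, and 13 mtDNA members. NK-92 is a human NK cell line from a lymphoma that grows in IL-2. The 3 shCtrl libraries came from NK-92 cells stably carrying a control shRNA, and the 3 shmiR155HG libraries from cells stably carrying an shRNA against miR155HG. Before RNA was taken, both groups received 1000 U/mL of IL-2 together with 10 ng/mL of IL-12 over 12 h, so no unstimulated sample entered the comparison. The treatment label of shmiR155HG replicates 2 and 3 carries another number in the gene's name, and their titles were used. Nothing in the labels says that replicates were separate cultures, so p-values measure the spread between these libraries, which may be technical.

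Oxidative phosphorylation moves electrons from NADH and succinate through the respiratory complexes to oxygen, and ATP synthase uses the resulting proton gradient to make ATP. Complexes I, III, IV and V are assembled from subunits of both genomes, whereas complex II is encoded in the nucleus alone. The nuclear subunits are transcribed from separate promoters and imported as proteins. The mtDNA genes are read from both strands as long precursors that are cut into mRNAs, and most of the resulting mRNAs receive a short poly(A) tail. Activated NK cells raise glycolysis together with respiration.

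The mtDNA genes lie so close together that some share bases. MT-ATP8 and MT-ATP6, subunits of the membrane part of ATP synthase, overlap by 46 bases, and MT-ND4L and MT-ND4, membrane subunits of complex I, overlap by 7 bases. The stretches are shown because a read there fits both genes, so that the counts within each pair may not be independent, and how the counting assigned such reads is not given in the sources used here. They are read 5′ to 3′ on the plus strand of hg38 with the shared bases in capitals, at chrM:8517-8582 for the first pair and chrM:10745-10781 for the second.
MT-ATP8 and MT-ATP6: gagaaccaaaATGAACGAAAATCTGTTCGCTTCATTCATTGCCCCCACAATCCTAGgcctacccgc
MT-ND4L and MT-ND4: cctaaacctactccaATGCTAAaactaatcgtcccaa

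Nuclear subunit genes are known for promoters with sites for the transcription factor NRF1, a regulator of respiratory genes. RefSeq promoter windows (300 bases around the gene start, most of them upstream, GRCh38.p14) were matched for 64 of the 77 nuclear subunit genes. The letters GCATGCGC, the core of the NRF1 site, were found on either strand in 13 of these 64 windows (20.3%), against 3.27% of all 27305 windows and 6.07% of the 9138 windows of tested genes. From 8 of these windows, 2 for each of complexes I, II, IV and V, the core and its flanks are shown as examples of this shared feature, each read on the strand where the core reads as below and with the core in capitals.
NDUFS7, chr19:1383824-1383851, plus strand: tccggtttccGCATGCGCtccgagccgc
NDUFS6, chr5:1801351-1801378, minus strand: tagcgctaacGCATGCGCacggcttctg
SDHB, chr1:17054215-17054242, minus strand: agccaaatggGCATGCGCcgctactgcg
SDHD, chr11:112086755-112086782, plus strand: ctgtgtttgcGCATGCGCgacgggtgtg
COX6A1, chr12:120437885-120437912, plus strand: gagggcacacGCATGCGCacgaaggaaa
COX5B, chr2:97645916-97645943, plus strand: gcagagctggGCATGCGCaatttccgcc
ATP5PF, chr21:25735157-25735184, plus strand: tgctctgtacGCATGCGCtctttgagtg
ATP5F1C, chr10:7788147-7788174, plus strand: gagcttcggcGCATGCGCgctgaggcct

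The target of the shRNA was low but measurable. Counts of MIR155HG, the host gene of miR-155, were 73, 67 and 62 in the shCtrl libraries against 28, 19 and 10 in the shmiR155HG libraries, a change of -1.78 on the log2 scale (SE 0.43, adjusted p = 0.0045). Libraries held 33454786 to 39157264 counts, and scaling factors lay between 0.997 and 1.003. Of 15 NK cell markers, 12 exceeded 10 CPM. Of the 14 tested, 4 were higher and 3 lower in shmiR155HG cells at an adjusted p under 0.05 (50%, against 15.3% of all genes tested). Their log2 fold changes ran from -1.14 to 0.336. Summed NK marker levels ran from 4660 to 4670 CPM in shCtrl and from 4310 to 4460 CPM in shmiR155HG. The B cell markers MS4A1, CD79A and CD79B and the T cell markers CD3D, CD3G, CD4 and CD8A had means below 1 CPM. Markers of other cell types above 10 CPM were PAX5, the T cell receptor constant genes TRAC (72.3 CPM), TRBC1 (127 CPM) and TRBC2, and the stromal receptor gene PDGFRB (201 CPM). The B cell factor PAX5 and TRBC2 were higher in shmiR155HG cells (log2 fold change 0.49 and 0.32), and the myeloid integrin ITGAM was lower (-0.60). Summed marker levels ran from 230 to 263 CPM in shCtrl and 341 to 344 CPM in shmiR155HG for B cell markers, from 372 to 395 and 426 to 460 CPM for T cell markers, from 22.2 to 29.6 and 16 to 21.8 CPM for myeloid markers, and from 190 to 210 and 200 to 211 CPM for stromal and epithelial markers. Their part in the results that follow was not tested.

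All 13 mRNAs of mtDNA were detected in every library, and 8 of the 13 were higher in shmiR155HG cells (61.5%, none lower). Over all 12263 genes, 15.3% were called by edgeR's quasi-likelihood test at an adjusted p under 0.05, 7.26% higher and 8.02% lower. The median log2 fold change of the 13 mRNAs was 0.188, where the median over all genes tested was 0.000966. At an unadjusted p under 0.05, 9 of the 13 were higher and 0 lower, and the exact test, DESeq2 and limma-voom called 8, 9 and 9 higher and 0 lower. The share of all genes tested under that unadjusted threshold is not given, so such counts, here and below, cannot be set against it. The 8 genes had shmiR155HG libraries wholly above the shCtrl libraries, and no mtDNA gene had them wholly below. Over all genes, the groups did not overlap for 30.8%, with shmiR155HG above for 15.2% and below for 15.6%.

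MT-ND2 and MT-ND1, membrane subunits of complex I that are neighbours among the protein genes of mtDNA, had the largest fold changes. MT-ND2 (chrM:4470-5511) had, in the order of the replicate numbers, 1040, 1059 and 1084 normalized CPM in shCtrl and 1453, 1334 and 1475 in shmiR155HG. It changed by 0.42 on the log2 scale (SE 0.034, adjusted p = 5.14e-10), a fold of 1.34. MT-ND1 (chrM:3307-4262) had 743.5, 718 and 737 normalized CPM in shCtrl and 922, 926 and 966 in shmiR155HG, a change of 0.36 on the log2 scale (SE 0.031, adjusted p = 2.14e-09). In both genes the lowest shmiR155HG library lay well above the highest shCtrl library.

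MT-CYB, cytochrome b and the only mtDNA subunit of complex III (chrM:14747-15887), had 1747, 1783 and 1763 normalized CPM in shCtrl and 2204, 2069 and 2261 in shmiR155HG. This was a change of 0.30 on the log2 scale (SE 0.031, adjusted p = 3.86e-08). The groups were again separate, and the shCtrl libraries lay closer together than the shmiR155HG libraries.

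The other complex I subunits of mtDNA had unequal estimates. MT-ND4 (chrM:10760-12137) rose from 3956, 3880 and 3927 to 4712, 4362 and 4592 normalized CPM (log2 fold change 0.22, SE 0.028, adjusted p = 2.94e-06). MT-ND4L (chrM:10470-10766) rose from 760.4, 746 and 779 to 888, 816.5 and 821 (log2 fold change 0.14, SE 0.034, adjusted p = 0.00359). The MT-ND4L call was lost without shmiR155HG replicate 1, where the log2 fold change was 0.10, and MT-ND4 kept its call with each of the 6 libraries left out. MT-ND5 (chrM:12337-14148) had 1446, 1405 and 1474 normalized CPM in shCtrl and 1572, 1410 and 1516 in shmiR155HG, with overlapping groups and a change of 0.056 on the log2 scale (SE 0.034, adjusted p = 0.299). MT-ND3 (chrM:10059-10404), the least abundant, had 126.5, 109.6 and 100.7 normalized CPM in shCtrl and 106.5, 105 and 108 in shmiR155HG. It was the only mtDNA member with a negative estimate (log2 fold change -0.077, SE 0.062, adjusted p = 0.461), and the sign turned without shCtrl replicate 1.

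MT-ND6 is the only protein gene transcribed from the opposite strand of mtDNA, and its mRNA is known to lack a poly(A) tail of the usual kind. It had 313, 270.4 and 306 normalized CPM in shCtrl and 322, 280.0 and 298.5 in shmiR155HG. The groups overlapped, at a change of 0.018 on the log2 scale (SE 0.060, 95% interval -0.10 to 0.14). The 3′ ends of MT-ND5 and MT-ND6 meet on opposite strands, and strand use in counting is not given in the sources used here.

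The core subunits of complex IV, MT-CO1, MT-CO2 and MT-CO3, also had unequal estimates. MT-CO2 (chrM:7586-8269), which takes electrons from cytochrome c, rose from 980.0, 1014 and 926 to 1156, 1087 and 1197 normalized CPM (log2 fold change 0.24, SE 0.036, adjusted p = 3.12e-05). MT-CO1 (chrM:5904-7445), which holds the oxygen-binding centre and was the most abundant member, had 5815, 6305 and 5931 normalized CPM in shCtrl and 6355, 6266 and 6437 in shmiR155HG. Its groups overlapped through shCtrl replicate 2, and its log2 fold change of 0.078 (SE 0.029, adjusted p = 0.0636) passed the threshold in 6 of 18 alternative settings. MT-CO3 (chrM:9207-9990) had 1845, 1854 and 1650 normalized CPM in shCtrl and 1819, 1796 and 1986 in shmiR155HG, a change of 0.066 on the log2 scale (SE 0.051, adjusted p = 0.455) with overlapping groups.

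Both ATP synthase subunits of mtDNA rose. MT-ATP6 (chrM:8527-9207), part of the proton channel, went from 2192, 2172 and 2140 to 2503, 2396 and 2523 normalized CPM (log2 fold change 0.19, SE 0.028, adjusted p = 1.78e-05). MT-ATP8 (chrM:8366-8572) went from 597, 569.5 and 601 to 707, 646 and 660 (log2 fold change 0.19, SE 0.035, adjusted p = 0.000374). The annotations of these genes share bases, as the first sequence above shows.

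**Figure D1:**
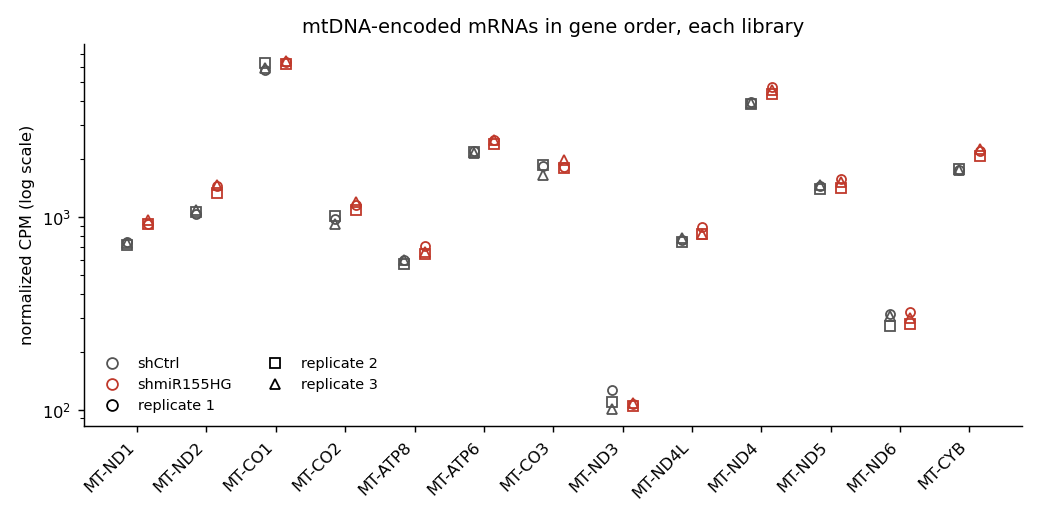
Normalized CPM (log axis) of the 13 mtDNA mRNAs in gene order, with an open symbol for each library (circle, square and triangle for replicates 1, 2 and 3) in shCtrl and shmiR155HG cells. Levels run from about 101 CPM for MT-ND3 to 6437 CPM for MT-CO1, and the groups are separate for 8 genes, among them MT-ND1, MT-ND2 and MT-CYB.

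**Figure D2:**
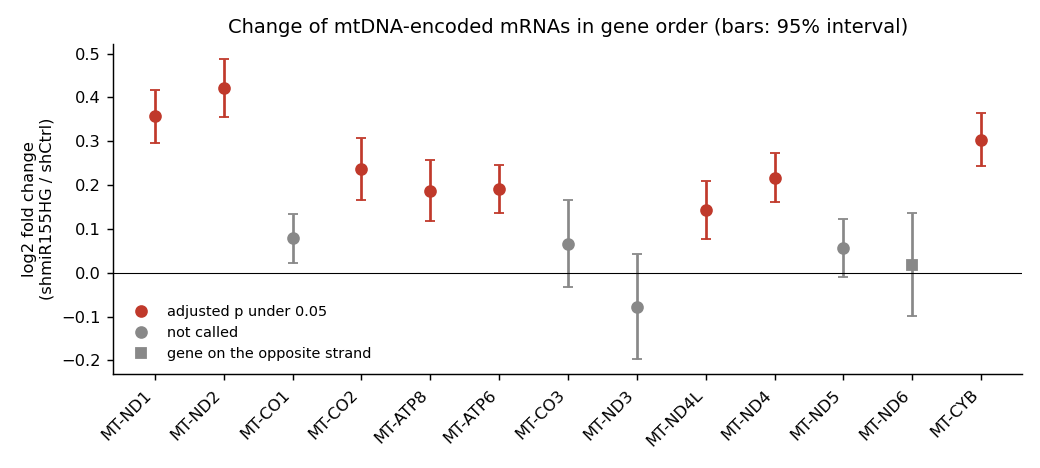
Log2 fold change of shmiR155HG over shCtrl for the 13 mtDNA mRNAs in gene order, with called genes in red. Bars are 95% intervals by a normal approximation from the SE of the quasi-likelihood fit. Estimates run from -0.08 for MT-ND3 to 0.42 for MT-ND2, and the square marks MT-ND6 on the opposite strand.

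The mRNAs were also compared as ratios within a library, in which library scaling cancels. The ratio of MT-ND2 to MT-CO1 counts was 0.177 ± 0.0077 (SD, n = 3) in shCtrl and 0.224 ± 0.0092 in shmiR155HG. The ratio of MT-ND1 to MT-ND5 went from 0.508 ± 0.0076 to 0.627 ± 0.036. The ratio of MT-CYB to MT-ND6, from opposite strands, went from 5.98 ± 0.54 to 7.27 ± 0.38. The numerators are genes called higher and the denominators genes not called, so the direction of these ratios follows from their choice, and they are given as a description.

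Summed over the 13 genes, mtDNA mRNAs took 2.159%, 2.182% and 2.132% of all counts in the shCtrl libraries and 2.465%, 2.352% and 2.483% in the shmiR155HG libraries. Normalized, this was 21622 ± 239 CPM (SD, n = 3) against 24352 ± 745 CPM, a ratio of 1.126. The nuclear members summed to 7248, 7248 and 6861 CPM in shCtrl and 6929, 6947 and 7000 in shmiR155HG, a ratio of 0.978 with overlapping groups. The ratio of mtDNA to nuclear counts was thus 2.975, 3.02 and 3.122 in shCtrl and 3.568, 3.382 and 3.549 in shmiR155HG, with no overlap. By complex, the same ratio went from 4.43 ± 0.13 to 5.20 ± 0.24 for complex I, from 1.96 ± 0.061 to 2.54 ± 0.14 for complex III, from 8.85 ± 0.29 to 9.26 ± 0.050 for complex IV and from 0.988 ± 0.031 to 1.16 ± 0.034 for complex V. In bulk RNA, a change in mRNA per mitochondrion, in mitochondria per cell or in the share of cells rich in them cannot be told apart.

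**Figure D3:**
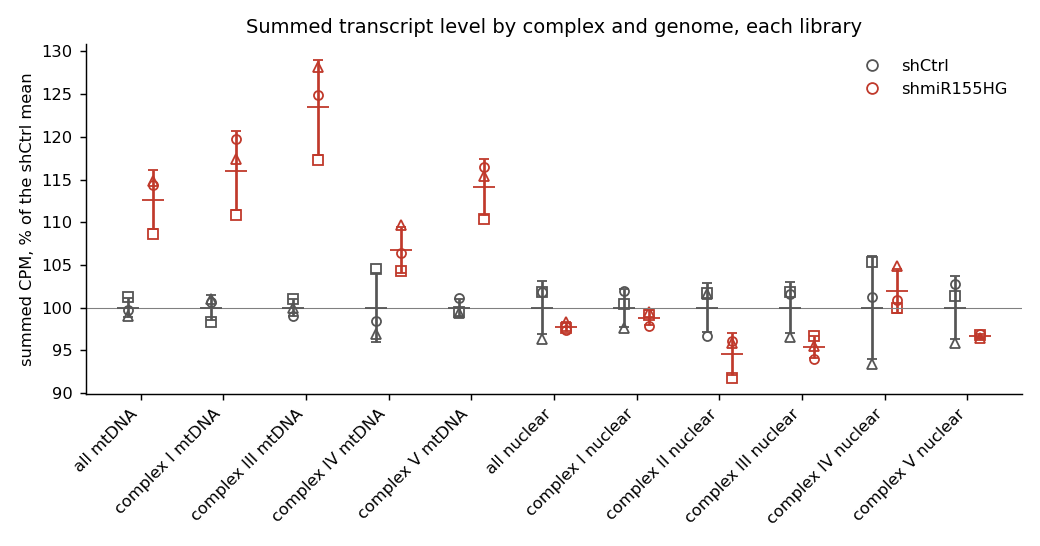
Summed normalized CPM of the members by complex and genome, each library as a percent of the shCtrl mean, with the mean and SD (n = 3) beside the open symbols. Over all 13 mtDNA genes the shmiR155HG libraries (23495 to 24841 CPM) lie above the shCtrl libraries (21418 to 21885 CPM), whereas the nuclear sums overlap between groups for every complex except complex II.

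Values that moved together with the mtDNA result were recorded beside it. Of 72 RNAs that mostly lack a poly(A) tail, chiefly replication-dependent histone mRNAs, 27 passed the filter and were tested. A gene can pass the filter through shmiR155HG libraries alone, which favours genes that are higher there. Of the 27 tested, 15 were higher in shmiR155HG libraries (55.6%, against 7.26% of all genes tested) and 0 lower (against 8.02%). Because of that filter these shares are a description only. Counts at an unadjusted p under 0.05 were 21 higher and 0 lower. The exact test, DESeq2 and limma-voom called 16, 17 and 14 of them higher and 0 lower. Summed over all 72, tested or not, the level before scaling ran from 80.3 to 86.3 CPM in shCtrl and from 144 to 162 CPM in shmiR155HG. HIST1H2AC, a histone H2A gene, had the lowest adjusted p, with 12.2 ± 2.0 against 30.9 ± 0.71 normalized CPM (log2 fold change 1.35, SE 0.11, adjusted p = 7.86e-10). HIST1H4C and HIST2H2BE followed at log2 fold changes of 3.23 (SE 0.48, adjusted p = 1.73e-05) and 2.09 (SE 0.34, adjusted p = 9.29e-05). The libraries were made from RNA captured on oligo(dT), and the part of RNA capture in the mtDNA result was not tested. No ribosomal or transfer RNA of mtDNA has an entry in the count table. Within shmiR155HG, replicate 2 was the lowest of the 3 libraries for 12 of 13 mtDNA members, and without it 8 remained called.

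Few nuclear members differed between the groups. Of 82, 1 was higher and 1 lower (2.44% called, against 15.3% of all genes tested and 16.6% of 3638 other genes of like level, from 30.5 to 95.3 CPM). At an unadjusted p under 0.05, 4 were higher and 6 lower. The exact test, DESeq2 and limma-voom each called the same 2 genes. The median log2 fold change was -0.033, with 33 positive and 49 negative estimates. The 95% interval lay within a 1.2-fold change in either direction for 58 of 82 members, and within 1.5-fold for 79, among them all 75 with a mean of at least 10 CPM. The groups did not overlap for 6 of the 82 members with shmiR155HG above and 8 with it below. Over all genes tested, these shares were 15.2% above and 15.6% below.

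Complex I contributed 36 nuclear subunits, 17 with positive and 19 with negative estimates (median -0.019), and held both called genes. NDUFS8 (chr11:68030617-68036644), an iron-sulfur subunit of the arm that carries electrons to ubiquinone, had 73.4, 78.1 and 82.5 normalized CPM in shCtrl and 86.0, 95.9 and 95.9 in shmiR155HG. The groups were separate, at a change of 0.25 on the log2 scale (SE 0.060, adjusted p = 0.0045). NDUFS1 (chr2:206114817-206159509), the large iron-sulfur subunit at the NADH-oxidizing end, had 161, 156 and 158 normalized CPM in shCtrl and 152, 140.0 and 137 in shmiR155HG. It changed by -0.15 on the log2 scale (SE 0.045, adjusted p = 0.0265), and the call was lost in 7 of 18 alternative settings, among them the correction for GC content (log2 fold change -0.10) and leaving out shCtrl replicate 1 or 2 or shmiR155HG replicate 2 or 3. NDUFV1, which binds NADH and FMN next to NDUFS1, had 161 ± 1.3 against 171.5 ± 4.3 normalized CPM, with separate groups and an adjusted p of 0.137. The core subunits NDUFS3, NDUFS7 and NDUFV2 had log2 fold changes between -0.11 and 0.084 and were not called.

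Complex II, succinate dehydrogenase, links the respiratory chain to the TCA cycle. Its 4 genes had negative estimates, none called (median -0.088, with 1 lower at an unadjusted p under 0.05 and 0 by the exact test, DESeq2 and limma-voom). SDHB (chr1:17018664-17054032), the iron-sulfur subunit, had 98.2, 101 and 100.4 normalized CPM in shCtrl and 92.1, 87.1 and 96.2 in shmiR155HG (log2 fold change -0.12, SE 0.053, adjusted p = 0.121). SDHD, a membrane anchor, was likewise separate between groups, with 85.7, 90.3 and 82.5 against 81.0, 81.7 and 80.4 normalized CPM and an adjusted p of 0.327. SDHA, the flavoprotein, and SDHC, the other anchor, had overlapping groups. The summed level of complex II was 425 ± 12 CPM in shCtrl and 402 ± 10 CPM in shmiR155HG, without overlap.

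For complex III, 6 of 8 nuclear genes had negative estimates (median -0.063) and none was called, with 0 higher and 2 lower at an unadjusted p under 0.05 and 0 by the exact test, DESeq2 and limma-voom. UQCRH (chr1:46303698-46316776), the acidic hinge protein at the cytochrome c side, had 86.6, 96.0 and 75.3 normalized CPM in shCtrl and 72.3, 79.0 and 79.3 in shmiR155HG (log2 fold change -0.16, SE 0.070, adjusted p = 0.132). Its shCtrl libraries spread widely and overlapped the other group through replicate 3, without which it was called lower, as it was without the filter on low counts. UQCRC2, a core subunit, had an adjusted p of 0.0528 just over the threshold, with 202 ± 3.9 against 186 ± 8.7 normalized CPM and separate groups. Its call was gained without shmiR155HG replicate 1 and without the filter on low counts. CYC1, cytochrome c1 and a subunit that the symbol rule does not catch, was at 104 and 105 normalized CPM (log2 fold change 0.017, adjusted p = 0.878).

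Complex IV was the one nuclear set with mostly positive estimates, 9 of 12 (median 0.057), and none was called. Counts at an unadjusted p under 0.05 were 1 higher and 0 lower, and the exact test, DESeq2 and limma-voom called 0. The summed level overlapped between groups, with shCtrl replicate 3 the lowest library. It was 1005, 1045 and 927 CPM in shCtrl and 1002, 993 and 1041 CPM in shmiR155HG. COX4I1 (chr16:85798633-85807068), the largest nuclear subunit, had 170, 191 and 180.4 normalized CPM in shCtrl and 175, 169 and 170.5 in shmiR155HG (log2 fold change -0.07, SE 0.044, adjusted p = 0.312). COX5A, a matrix-side subunit, had 143, 139 and 136 against 153, 141 and 155 normalized CPM, with overlapping groups and an adjusted p of 0.128. NDUFA4, once assigned to complex I and now counted in complex IV, had 23.7, 24.3 and 20.3 against 23.9, 27.1 and 23.0 normalized CPM (log2 fold change 0.12, adjusted p = 0.503). The largest estimate among all nuclear members was that of COX6A2, at 0.80, 0.88 and 1.15 against 1.51, 0.87 and 1.52 normalized CPM, and its log2 fold change of 0.46 was close to its SE of 0.41 (adjusted p = 0.52).

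For ATP synthase, 14 of 17 nuclear subunit genes had negative estimates (median -0.045) and none was called, with 1 higher and 1 lower at an unadjusted p under 0.05 and 0 by the exact test, DESeq2 and limma-voom. ATP5F1B (chr12:56638175-56645984), the catalytic beta subunit, was the most abundant nuclear member, at 902, 935 and 881 normalized CPM in shCtrl and 871, 867 and 895 in shmiR155HG. Its log2 fold change of -0.045 had an SE of 0.031 and overlapping groups. ATP5F1A, the alpha subunit, had 700.2, 669.9 and 653 against 655, 632 and 625 normalized CPM (log2 fold change -0.08, SE 0.033, adjusted p = 0.0986) and was called lower without shCtrl replicate 3. The stalk subunits ATP5PB, ATP5PO and ATP5PD had log2 fold changes between -0.085 and -0.031.

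**Figure D4:**
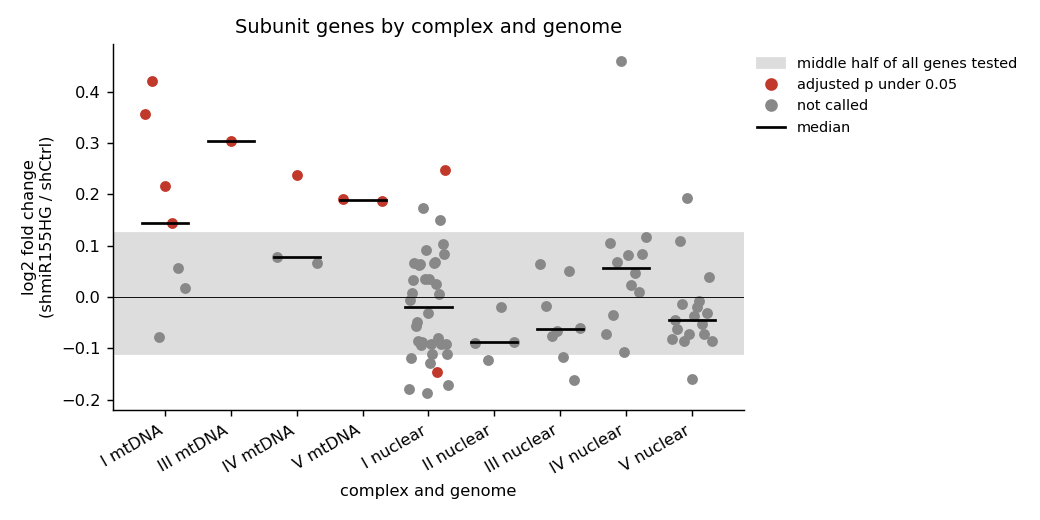
Log2 fold change of shmiR155HG over shCtrl for each subunit gene by complex and genome, with called genes in red, medians as bars and the interquartile range of all genes tested shaded. The mtDNA medians run from 0.078 for complex IV to 0.30 for complex III, and the nuclear medians from -0.088 for complex II to 0.057 for complex IV.

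**Figure D5:**
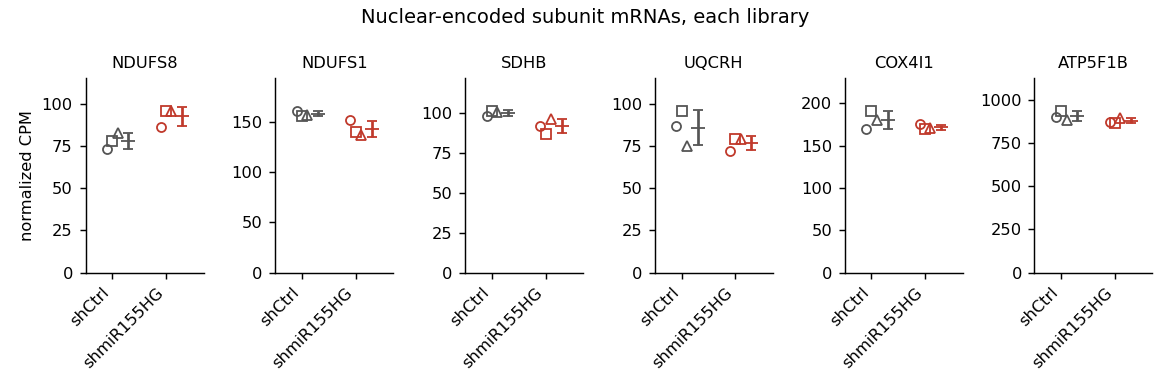
Normalized CPM of 6 nuclear subunit genes in each library, axes from 0, with mean and SD (n = 3) beside the symbols. NDUFS8 and NDUFS1, the called genes, have separate groups, as has SDHB, which was not called, whereas UQCRH, COX4I1 and ATP5F1B overlap.

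Several subunits exist as paralogs that differ between tissues. In NK-92 cells the widely expressed forms carried nearly all counts. COX4I2, the lung and hypoxia form of subunit 4, and COX7A1, the heart and muscle form of subunit 7A, were listed at 0 in every library, as were COX7B2 and COX8C. COX6A1, the liver form of subunit 6A, stood at 124 ± 7.6 normalized CPM in shCtrl and 130 ± 6.5 in shmiR155HG, whereas the muscle form COX6A2 stayed near 1 CPM. COX7A2 had 64.9 ± 5.6 and 65.9 ± 4.3 normalized CPM, and COX7A2L, a related factor for respiratory supercomplexes, had 41.0 ± 1.3 and 39.8 ± 2.4. The 3 genes for the identical mature subunit c of the ATP synthase ring did not share a direction. ATP5MC3 had 171 ± 5.0 against 162.5 ± 6.4 normalized CPM, ATP5MC1 84.9 ± 3.5 against 80.1 ± 1.7, and ATP5MC2 28.6 ± 0.69 against 32.7 ± 3.2, none of them called. The groups of ATP5MC2 were separate (log2 fold change 0.19, SE 0.087, adjusted p = 0.142).

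Of the 103 symbols, 8 did not reach the level limit. These were NDUFA4L2, COX6B2, ATP5MGL and the antisense RNA NDUFV2-AS1 beside the 4 genes listed at 0. Just inside the limit were UQCRHL, an intronless copy of UQCRH, with a mean of 0.91 CPM before scaling, and COX6A2 with 1.12 CPM. Reads of processed copies and of nuclear copies of mtDNA can be placed on the parent gene or the reverse, and how the counting treated them is not given in the sources used here. The list also holds 5 members that are no subunits of a complex, namely UQCRHL, COX7A2L, the ATP synthase inhibitor ATP5IF1 and the non-coding RNAs NDUFA6-DT and NDUFB2-AS1, and the quasi-likelihood test called none of these 5.

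Levels were compared between genes only per kilobase of the canonical transcript in GENCODE, as normalized CPM per kilobase in shCtrl. The mtDNA mRNAs ran from 324 for MT-ND3 to 3902 for MT-CO1, and the nuclear subunits from 2.53 for COX6A2 to 515 for ATP5F1B. The nuclear median was 47.2 for complex I, 69.3 for complex II, 34.3 for complex III, 122 for complex IV and 87.4 for complex V. The highest nuclear genes were NDUFS7 at 121 in complex I, SDHB at 98.5 in complex II, UQCRH at 160 in complex III and COX4I1 at 236 in complex IV. NDUFS7, an iron-sulfur subunit next to the ubiquinone site, had 91.2, 89.8 and 94.5 against 100.3, 94.8 and 97.0 normalized CPM, with separate groups and an adjusted p of 0.314. A gene expressed from a shorter transcript than the annotated one has a higher level per kilobase than given here.

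The small shifts of nuclear members depended on the library. In shCtrl, replicate 3 was the lowest of the 3 libraries for 56 of 82 nuclear members (68.3%), against 35.3% of all genes tested and 50% of 1019 other genes under 1000 nt. It was the lowest for 32 of 48 nuclear members under 1000 nt (66.7%) and 24 of 34 of 1000 nt or more (70.6%). The median log2 fold change of the nuclear members was 0.015 without shCtrl replicate 1 and -0.065 without shCtrl replicate 3. Members with a transcript of 1000 nt or more had a median of -0.064 (7 positive, 27 negative), and shorter members 0.0095 (26 positive, 22 negative). Across all genes tested, log2 fold change and GC content had a Spearman correlation of 0.249, and across the 82 nuclear members 0.209, given as descriptions because the genes share libraries. With GC content corrected, the nuclear median was -0.023 and the mtDNA median 0.216 with 9 genes called.

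The promoter letters were set beside the fold changes of the nuclear members. The 13 subunit genes with the NRF1 core had a median log2 fold change of -0.031 and 6 positive estimates, and the 51 without it -0.052 and 19 positive. Among the genes whose windows are printed above, log2 fold changes ran from -0.12 for SDHB to 0.10 for NDUFS6, none called. The ETS core CCGGAAG was in 20 of 64 windows (31.2%, against 10.67% of all windows and 21.01% of those of tested genes), and the YY1 core AAGATGGC in 11 (17.2%, against 3.03% and 6%). Both strands were searched, and the end of the ETS core and the start of the YY1 core share the letters AAG, so that a stretch can hold both. Genes with the ETS core had a median log2 fold change of -0.049 (5 of 20 positive) and those without it -0.022 (20 of 44 positive). For the YY1 core the medians were -0.065 with it (4 of 11 positive) and -0.031 without it (21 of 53 positive). These are matches of letters and not measured sites.

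Genes that build the complexes were also counted. For complexes I and IV, 5.26% and 8.33% of the assembly factors were called, against 15.3% of all genes tested. Of 19 assembly factors of complex I, 0 were higher and 1 lower, with 1 and 2 at an unadjusted p under 0.05 and 0 and 1 by the exact test, DESeq2 and limma-voom. ACAD9, an acyl-CoA dehydrogenase relative that serves complex I assembly, fell from 80.8 ± 2.4 to 69.7 ± 0.76 normalized CPM (log2 fold change -0.21, SE 0.057, adjusted p = 0.0103). Of 24 factors of complex IV, 1 was higher and 1 lower. SURF1, needed for the insertion of haem into MT-CO1, had 23.1 ± 1.9 against 28.5 ± 0.29 normalized CPM (log2 fold change 0.31, adjusted p = 0.0226), a call lost without any of 5 libraries (all but shCtrl replicate 2). HIGD1A, a hypoxia-inducible complex IV factor, fell from 176 ± 7.4 to 146 ± 2.3 normalized CPM (log2 fold change -0.27, SE 0.042, adjusted p = 4.75e-05). For complexes II, III and V, 0 of 4, 0 of 8 and 0 of 5 factors were called, and the exact test, DESeq2 and limma-voom called 0 as well. At an unadjusted p under 0.05 these lists had 0, 3 and 0 genes. The median log2 fold changes were -0.041 for factors of complex I, -0.107 for II, -0.023 for III, -0.0062 for IV and -0.081 for V.

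Of 30 genes for the transcription, RNA processing and maintenance of mtDNA, 3 were higher and 1 lower (median -0.012). This was 13.3% called, against 15.3% of all genes tested. POLG, the catalytic subunit of the mtDNA polymerase, rose from 139 ± 9.0 to 166.5 ± 6.0 normalized CPM (log2 fold change 0.26, SE 0.047, adjusted p = 0.000204) and was called in all 18 alternative settings. TWNK, the mtDNA helicase Twinkle, rose from 67.3 ± 2.2 to 79.7 ± 2.6 (log2 fold change 0.24, SE 0.058, adjusted p = 0.00418). POLRMT, the mitochondrial RNA polymerase, rose from 202 ± 12 to 223 ± 1.1 (log2 fold change 0.15, SE 0.042, adjusted p = 0.0169). Over 17 alternative settings, 2 to 3 genes of this list were called higher. LRPPRC, which stabilizes mtDNA mRNAs together with SLIRP, fell from 193 ± 8.6 to 173 ± 1.8 (log2 fold change -0.15, SE 0.041, adjusted p = 0.0114), a call lost without shCtrl replicate 3, shmiR155HG replicate 1 or 3, or with GC content corrected. TFAM, which packs mtDNA and starts its transcription, had 147 against 143 normalized CPM (log2 fold change -0.045, adjusted p = 0.592), and SLIRP 23.8 against 23.3 (adjusted p = 0.901).

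A further list held 8 genes outside the symbol rule, for electron carriers, enzymes that pass electrons to quinone and the complex III subunit CYC1. Of these 8, 1 was higher and 1 lower (25% called, against 15.3% of all genes tested, median -0.010). GPD2, the glycerol-3-phosphate dehydrogenase that feeds ubiquinone from the cytosol, had 10.3 ± 1.0 against 14.3 ± 1.8 normalized CPM (log2 fold change 0.47, SE 0.14, adjusted p = 0.0195), a call lost without shCtrl replicate 1 or 3 or without shmiR155HG replicate 2 or 3. SQOR, sulfide:quinone oxidoreductase, fell from 29.4 ± 0.41 to 21.1 ± 3.5 (log2 fold change -0.48, SE 0.10, adjusted p = 0.00156). CYCS, cytochrome c, had 202 against 191 normalized CPM (adjusted p = 0.299).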

How the data were processed

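RNA-seq counts of 3 shCtrl and 3 shmiR155HG NK-92 libraries were analysed, grouped by sample title. Reads had been aligned by the authors with HISAT2 (hg38), and the whole-number counts per gene that they deposited came from StringTie and prepDE.py3 without normalization. Versions, annotation release and strand setting are not given in the sources used here, and whether a count equals 1 read is not known. No column was left out. Members and gene lists were chosen with earlier results of these data known.

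Counts were fitted with edgeR 4.0.16 in R 4.3.3 (TMM, robust quasi-likelihood test, no replicate block, more than 1 CPM in at least 2 libraries). Benjamini-Hochberg adjustment ran over 12263 genes, and an adjusted p under 0.05 was a call. All single-gene adjusted p-values are from this test. SD is of normalized CPM and SE of the log2 fold change. Named genes were all mtDNA members, called members, per complex the nuclear gene with the largest absolute log2 fold change and that with the highest level per kilobase, paralog sets, genes near the level limit and, per list, up to 3 called genes with the lowest adjusted p. Other genes were named after their values were seen. Alternatives covered scaling, filter, test (exact test, DESeq2 1.42.0, limma-voom 3.58.1), the rule of the study, replicate block, GC content and each library left out. Positions, lengths and GC content are from GENCODE release 44. Replicates differed by more than sampling noise (mean chi-square per gene 7.35 to 10.9), with a biological coefficient of variation of 8.71%. On simulated data with 12263 genes, the test recovered 44.8% of genes changed 1.25-fold, 77.6% of those changed 1.5-fold and 89.4% of those changed 2-fold, and 4.73% of calls were unchanged genes.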

Additional observations from a re-analysis of the deposited data

How the results depend on the processing

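The 8 mtDNA genes called higher became 3 (MT-ND1, MT-ND2 and MT-CYB) under the rule of the study as applied here, with edgeR's tagwise dispersion, which takes an unadjusted p below 0.01 with a fold above 1.2. By it, 0 nuclear members were called higher and 0 lower. That rule called 551 genes higher and 466 lower over the whole table. In the other 17 settings 7 to 9 mtDNA genes were called higher and 0 lower, and NDUFS8 stayed called. Nuclear members called lower numbered 3 with no filter on low counts (NDUFS1, UQCRC2 and UQCRH) and 2 with GC offsets (NDUFV1 and UQCRC1). With each library left out in turn, 1 to 2 nuclear members were called higher and 0 to 3 lower, and 580 to 891 genes were called higher and 674 to 917 lower over the table. The lowest of these, 580, came without shmiR155HG replicate 2. Replicate numbers did not pair the libraries (correlations of -0.0174, -0.0022 and -0.0053 between same-numbered deviations), and with a replicate block 8 mtDNA genes were called higher, 1 nuclear member higher and 1 lower, the same 10 genes. With the block and GC offsets together, 8 mtDNA genes and NDUFS8 were higher and NDUFV1 lower. The cause of these differences was not tested. The 95% interval reached past a 1.2-fold change for 24 of 82 nuclear members, and for those not called a change of that size is not excluded at this depth and spread.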

Other observations

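Mitochondrial genes outside the respiratory complexes and their assembly were counted in the same way. Of 18 genes of the TCA cycle and pyruvate dehydrogenase, 0 were higher and 4 lower (median log2 fold change -0.077). The share called was 22.2%, against 15.3% of all genes tested. At an unadjusted p under 0.05, 0 were higher and 6 lower, and the exact test, DESeq2 and limma-voom each called 0 and 4. FH, fumarase, fell from 147 ± 5.2 to 124 ± 1.3 normalized CPM (log2 fold change -0.25, SE 0.044, adjusted p = 0.000241). DLD, the dihydrolipoamide dehydrogenase shared by several complexes, fell from 201 ± 2.9 to 180.0 ± 7.3, and IDH3A, a subunit of the NAD-dependent isocitrate dehydrogenase, from 269 ± 13 to 244 ± 7.9. Both lost their call with GC offsets and without shmiR155HG replicate 3, and IDH3A also without shCtrl replicate 1 or shmiR155HG replicate 2. With GC offsets, 2 of the 18 genes were lower. Over 17 settings, 1 to 5 genes of this list were lower.

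Of 15 genes of the outer membrane, import and inner membrane carriers, 0 were higher and 4 lower (median log2 fold change -0.017). The share called was 26.7%, against 15.3% of all genes tested. At an unadjusted p under 0.05, 0 were higher and 6 lower, and the other 3 tools each called 0 and 4. SLC25A6, an ADP/ATP carrier that exports the product of ATP synthase, fell from 308 ± 6.9 to 245 ± 6.9 normalized CPM (log2 fold change -0.33, SE 0.037, adjusted p = 1.82e-07) and was called in all 18 alternative settings. The outer membrane channels VDAC3 and VDAC1 fell by 0.18 and 0.16 on the log2 scale (adjusted p = 0.00117 and 0.00133).

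Of 78 mitochondrial ribosomal protein genes, 2 were higher and 1 lower (median log2 fold change -0.0062), or 3.85% called against 15.3% of all genes tested. MRPS27 fell from 142 ± 7.8 to 126 ± 1.0 normalized CPM, and MRPS6 and MRPS26 rose from 85.4 ± 2.0 to 97.3 ± 4.4 and from 55.9 ± 1.5 to 63.4 ± 1.1, with the call of MRPS26 present in 6 of 18 settings. The call of MRPS27 was lost without shCtrl replicate 3 or shmiR155HG replicate 2, and that of MRPS6 without shmiR155HG replicate 1 or 3. Of 11 translation factors, 1 was higher and 2 lower (27.3% called, median -0.060). GFM2, a ribosome recycling factor, fell by 0.30 on the log2 scale (SE 0.076, adjusted p = 0.00723), and MTIF2, an initiation factor, by 0.22 (adjusted p = 0.0346). MTRF1, a release factor, had a log2 fold change of 0.30 (adjusted p = 0.0305), which was 0.19 without shmiR155HG replicate 3. The GFM2 call was lost without shCtrl replicate 2 or shmiR155HG replicate 2, the MTRF1 call without shCtrl replicate 2 or 3 or shmiR155HG replicate 2 or 3, and the MTIF2 call with GC offsets and without any of 5 libraries, all but shCtrl replicate 3.

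Of 9 regulators of mitochondrial biogenesis, 3 were higher and 0 lower (median log2 fold change 0.148). The share called was 33.3%, against 15.3% of all genes tested. At an unadjusted p under 0.05, 5 were higher and 0 lower, and the exact test, DESeq2 and limma-voom called 2, 4 and 2 higher. NRF1, whose core letters are in the printed promoter windows, had 30.4 ± 3.2 against 36.8 ± 1.9 normalized CPM (log2 fold change 0.28, SE 0.086, adjusted p = 0.0276). ESRRA, an orphan nuclear receptor, had a log2 fold change of 0.19 (adjusted p = 0.0254) and the coactivator PPRC1 0.12 (adjusted p = 0.0478). Each of these 3 calls was lost without shmiR155HG replicate 2. That of NRF1 was also lost without shCtrl replicate 3 or shmiR155HG replicate 3, and that of ESRRA without shCtrl replicate 1 or 2. The PPRC1 call was lost without any library but shCtrl replicate 3, and with the exact test and limma-voom. With GC offsets, ESRRA and PPRC1 lost their calls and NRF1 kept its own. Over 17 settings, 0 to 4 genes of the list were higher.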
